A study of Mus musculus with 6 samples.

Results

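The genes described here encode the secreted and membrane-bound cues, and the receptors for them, that steer growing axons and sprouting vessels. They comprise the ephrins and Eph receptors, the semaphorins with plexins and the neuropilin gene Nrp1, the netrins and Unc5 receptors, and the Slits and Robos. Members were chosen by gene symbol, leaving out Sema3c and Nrp2. Of the 20021 gene symbols on the array 68 belonged to these families, with 85 of its 39429 probes. RNA came from the trunk at embryonic day 9.5, which here runs from the otic vesicle back to somite 15 and takes in the forelimb buds. The comparison was between wild-type mouse embryos and Arid3b-null embryos, which lack a transcription factor that binds AT-rich DNA, and the labels name no treatment for either group. Each group had 3 arrays, and each array held RNA pooled from 4 embryos, so the spread between arrays is that between pools. Arrays carry the replicate number of their sample, and arrays of the same number shared a slide. The allele, the strain and how closely the embryos of a pool were matched in stage are not given in the sources used here.

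Eph receptors are tyrosine kinases that signal on contact with ephrins of a neighbouring cell, and ephrins can signal back into the cell that carries them. Semaphorins act through plexins, and secreted class 3 semaphorins mostly need a neuropilin to bind. Netrins attract axons through Dcc and repel them through Unc5 receptors, and Slits repel through Robos. In the trunk at this stage these systems are known for guiding commissural and motor axons, for confining neural crest cells to part of each somite, and for the sorting of arteries from veins.

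Values are log2 of the processed array signal relative to the 75th percentile of each array, so 0 is the level of that percentile, and differences are Arid3b-null minus wild type on this log2 scale. They were tested in 1 limma fit over all 19795 genes with a usable signal, and a gene was called when its Benjamini-Hochberg adjusted p was under 0.05. Of the 68 genes 63 were tested. Epha6, Epha10, Plxnb3, Ntng2 and Unc5d were not, because none of their probes passed the scanner software's background test on all 3 arrays of at least 1 group. A probe's signal also depends on its sequence, so signals were compared between groups and not between genes.

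The brightest probe of Arid3b itself read 2.18, 2.57 and 1.97 in wild type and 0.54, 0.65 and 0.46 in Arid3b-null, a 3.22-fold fall. Its other 2 probes fell too, by 3.23 and 1.90 on the log2 scale, and were well above background on 2 of 3 Arid3b-null arrays. The sources used here do not say where these probes lie relative to the deleted part. The 75th percentile lay between 611 and 844 signal units, and 60.7% to 68.1% of the probes were well above background. Markers of several cell types also differed between the groups. Of 10 early neuron markers 8 were lower, Tubb3 by 6.57-fold and Dcx by 6.37-fold among them. Of 7 surface epithelium markers 5 were higher, and so were all 11 hypoxia-induced genes listed. Of 9 endothelial markers 1 was higher, Tie1 at 1.52-fold. Over all tested genes 13.6% were called higher and 12.9% lower. Every tested gene of these marker lists and those below was well above background on all arrays, except that Cx3cr1 was so on 1 of 3 Arid3b-null arrays. In RNA of whole trunks, fewer cells of a type and less RNA per cell cannot be told apart.

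In the Arid3b-null trunks 15 guidance genes rose, 3 fell and 45 were not called. That is 23.8% higher and 4.76% lower, beside 13.6% higher and 12.9% lower over all tested genes. Called in either direction were 28.6% of the guidance genes and 26.6% of all genes, so the share of members that changed was near the background, and the rises outnumbered the falls. The median log2 difference of the members was 0.16, beside -0.04 over all tested genes, with medians of 0.11, 0.21 and 0.24 on the 3 slides. For 28 members (44.4%) the groups stood apart on all arrays, beside 46.2% of all genes. Semaphorin genes, 19 of the 63 tested, gave 7 of the 15 rises. Called changes of at least 2-fold, found in 6.55% of all genes, were the rises of 6 members, Sema4g, Sema3e, Sema6b, Sema3a, Sema3b and Nrp1, with Efna1 just under that size at 1.999-fold. Of these Sema3e cleared background on 2 of 3 wild-type arrays, and with normexp on each array's median background it stood at 1.28-fold and was not called (limma adjusted p = 0.0636). The 3 falls were those of Efna2, Ephb1 and Ntn3.

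**Figure D1:**
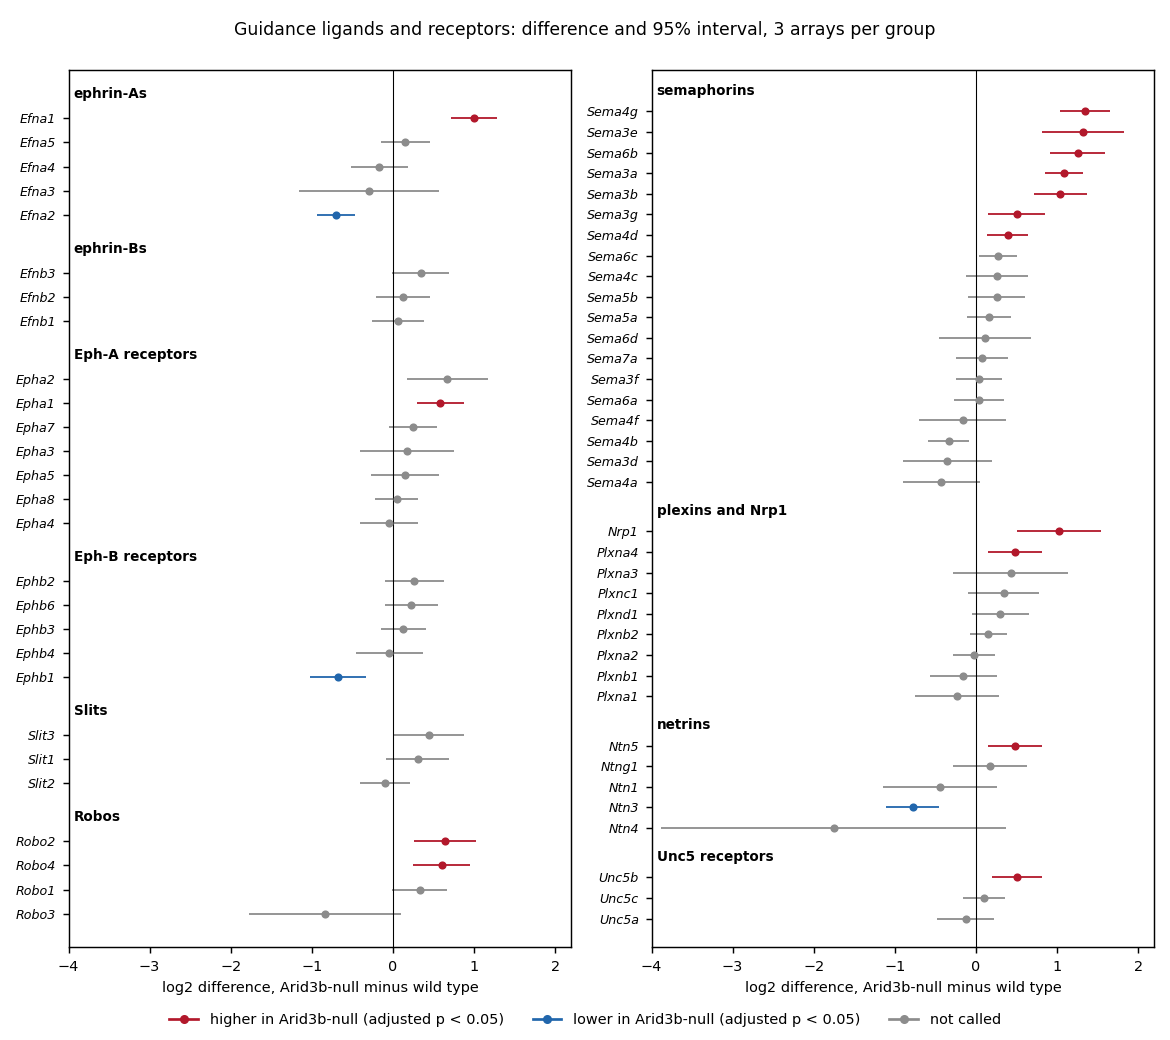
Log2 difference (Arid3b-null minus wild type) of the 63 tested guidance genes by family; points are limma estimates from 3 arrays per group, bars their 95% intervals, and colours show the call. The 15 called rises run from Sema4d at 0.39 to Sema4g at 1.34, and the 3 called falls from Ephb1 at -0.68 to Ntn3 at -0.78.

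Ligand and receptor genes each gave more rises than falls. Of 35 tested ligand genes 9 rose (25.7%) and 2 fell (5.71%), with a median log2 difference of 0.15. Of 28 tested receptor genes 6 rose (21.4%) and 1 fell (3.57%), with a median of 0.20. Over all tested genes 13.6% rose and 12.9% fell. Called in either direction were 31.4% of ligand genes and 25% of receptor genes, near the 26.6% of all genes. Among the ligands the rises were 7 semaphorins, Efna1 and Ntn5. Among the receptors they were Epha1, Nrp1, Plxna4, Robo2, Robo4 and Unc5b. No receptor family had more than 2 called members, but these families had only 3 to 9 tested genes, beside 19 semaphorin genes.

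**Figure D2:**
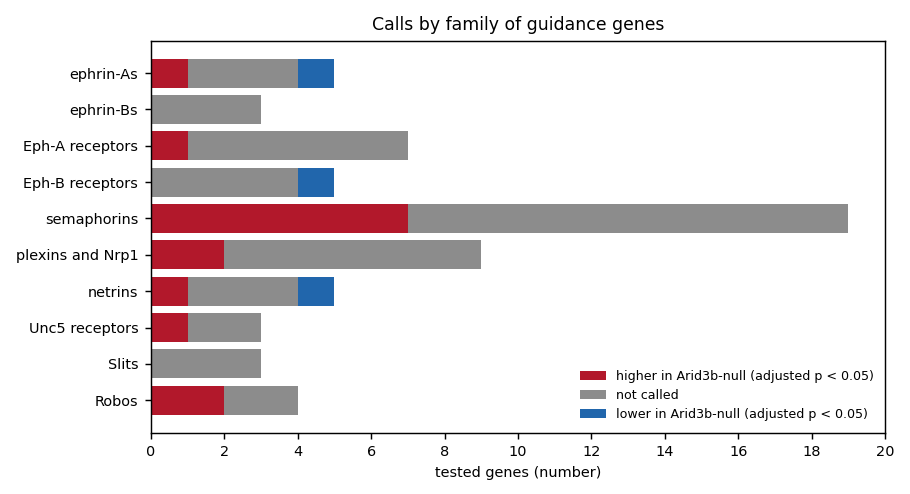
Number of tested genes in each family that were called higher, not called or called lower in Arid3b-null trunks. Semaphorins, with 19 tested genes the largest family, hold 7 of the 15 rises, and the ephrin-Bs and Slits, with 3 tested genes each, have no called member.

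Fewer guidance genes, and fewer of all genes, were called when any single array was left out. Over all genes the 2695 rises and 2561 falls became 1660 to 2047 and 1205 to 2038. The 15 rises and 3 falls became 7 and 3 without wild type replicate 1, 12 and 2 without wild type replicate 2, and 8 and 3 without wild type replicate 3. They became 9 and 2, 8 and 3, and 9 and 2 without Arid3b-null replicate 1, 2 and 3. With no filter on dim probes there were 6 rises and 2 falls, and over all 32530 genes then tested 1288 and 998. With normexp on each spot's local background no member was called by limma (6 higher and 3 lower at an unadjusted p under 0.05), where over all genes 2 rose and 0 fell. Efna1, Efna2, Sema3a, Sema3b, Sema4g, Sema6b and Ntn3 kept their calls in the other 14 of 15 alternative settings.

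Ephrin-A genes went both ways. Efna1 encodes an ephrin held in the membrane by a lipid anchor and is known from endothelial and epithelial cells. Efna1 read -0.086, -0.14 and -0.074 on the wild-type arrays and 0.94, 1.05 and 0.71 on the Arid3b-null arrays. All 3 Arid3b-null arrays lay above the wild-type arrays, which stood close together. The log2 difference was 0.999 ± 0.12 (SE, n = 3 per group, limma adjusted p = 0.00271).

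Efna2, which encodes another lipid-anchored ephrin, moved the other way. It read 0.19, 0.31 and 0.32 in wild type and -0.36, -0.45 and -0.48 in Arid3b-null. The groups did not overlap, and each spread over little more than 0.1. The difference was -0.70 ± 0.10 (SE, limma adjusted p = 0.00447), a 1.63-fold fall. Efna4 and Efna5 were not called, with log2 differences of -0.17 and 0.15.

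The probes of Efna3 disagreed. The brighter, used for the gene, differed by -0.29 ± 0.36 (SE, limma adjusted p = 0.588). The dimmer cleared background on 1 of 3 wild-type and on all 3 Arid3b-null arrays and was called higher in the fit over probes, at 0.94 ± 0.14 (SE, limma adjusted p = 0.00516). The sources used here do not say which transcripts each probe reads.

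The upstream sequences of Efna1 and Efna2, the ephrin-A genes that changed in opposite directions, are printed to show what lies before their start sites. RefSeq promoter windows of assembly GRCm38.p6, 250 bases before to 50 bases after a start, were found for 59 of the 68 genes (75 windows). They were searched on both strands for ACGTG or GCGTG, the core that hypoxia-inducible factors bind, and for the AT-rich word ATTAA. Windows with at least 1 match were counted, so overlapping matches, as both strands of CACGTG give, count once. The 250 bases before the most upstream listed start are given 5′ to 3′, and capitals, where present, mark a match on either strand.
Efna1 (GRCm38.p6, chr3:89280952-89281201, minus strand): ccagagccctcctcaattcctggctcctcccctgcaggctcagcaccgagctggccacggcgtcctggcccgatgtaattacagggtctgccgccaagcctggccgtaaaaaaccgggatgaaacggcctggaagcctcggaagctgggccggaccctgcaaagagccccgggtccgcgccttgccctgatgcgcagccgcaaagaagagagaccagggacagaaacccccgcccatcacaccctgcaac
Efna2 (GRCm38.p6, chr10:80179232-80179481, plus strand): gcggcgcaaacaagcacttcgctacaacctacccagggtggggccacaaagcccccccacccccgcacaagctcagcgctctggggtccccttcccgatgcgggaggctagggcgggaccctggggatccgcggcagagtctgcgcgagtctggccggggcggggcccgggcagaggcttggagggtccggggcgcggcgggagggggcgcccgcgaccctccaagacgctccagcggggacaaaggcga
Neither stretch holds a match of the searched core. The 1 match in this Efna1 window does not lie within the printed 250 bases. ACGTG or GCGTG was present in 8 of 19 windows of genes that rose (42.1%), in 1 of 3 windows of genes that fell, in 25 of 49 windows of genes not called (51.0%) and in 43.8% of all 32851 windows of the table. ATTAA was present in 2 of the 19, 0 of the 3 and 7 of the 49, and in 27.1% of all windows. The 19 windows belong to 13 of the 15 genes that rose and the 49 to 39 genes, so some genes count more than once. A match is a string of letters and shows no binding.

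Ephrin-B genes, whose products span the membrane and signal in both directions, had no call among 3 tested (0 at an unadjusted p under 0.05 by limma). Efnb2, the ephrin of arteries, read 1.35, 1.40 and 1.33 in wild type and 1.49, 1.71 and 1.25 in Arid3b-null, so its groups overlapped. Its log2 difference was 0.12, with a 95% interval of -0.21 to 0.45. A dimmer probe of Efnb2 differed by 0.36 ± 0.14 (SE), without overlap, and was not called in the fit over probes (limma adjusted p = 0.101). Efnb1 differed by 0.061 and Efnb3 by 0.34 (limma adjusted p = 0.767 and 0.133). The Efnb1 difference turned to -0.052 without Arid3b-null replicate 2.

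Among the 7 tested Eph-A receptor genes Epha1 rose. Epha1, a receptor of epithelial cells, read -1.02, -0.74 and -1.03 in wild type and -0.30, -0.30 and -0.44 in Arid3b-null. Every Arid3b-null array was above every wild-type array, by 0.58 ± 0.12 in the mean (log2, SE, limma adjusted p = 0.0159). It missed the threshold on leaving out wild-type array 1 (adjusted p = 0.0646) or Arid3b-null array 1 or 2 (0.0501 and 0.0502) and with no filter on dim probes (0.0688).

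Epha2, another epithelial receptor and one that binds ephrin-A1, had a difference of 0.67 ± 0.21 (log2, SE) that missed the threshold (limma adjusted p = 0.0568). With the replicate block, which compares the groups within slides, it was called (adjusted p = 0.0184), and so it was on leaving out wild-type array 2 (0.0492) and with normexp on each array's median background (0.0419). Its Arid3b-null readings of -0.71, -0.069 and -0.52 were all above the wild-type readings of -1.30, -0.81 and -1.20. The other Eph-A receptors, Epha3, Epha4, Epha5, Epha7 and Epha8, differed by -0.052 to 0.25 by their brightest probes and were not called. The dimmest probe of Epha7 differed by 1.35 ± 0.51 (SE, limma adjusted p = 0.0964 in the fit over probes). Arid3b-null replicate 3 stood apart there, at -1.98 beside -3.94 and -3.94, and the remaining Epha7 probe differed by 0.15. Epha4, which repels motor and commissural axons, differed by -0.052 with a 95% interval of -0.41 to 0.31.

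Beside the rises of Efna1 and Epha1, the surface epithelium markers Krt8, Krt18, Krt19, Tfap2a and Rab25 rose and Epcam and Cdh1 were not called, with a median log2 difference of 1.13. The summed signal of these 7 genes, as multiples of the array's 75th percentile and with Krt18 the strongest, was 23.9 to 36.1 in wild type and 56.5 to 66.4 in Arid3b-null. Its part in these results was not tested.

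Of the 5 Eph-B receptor genes Ephb1 fell and none rose (0 higher at an unadjusted p under 0.05 by limma). Ephb1, a receptor that neurons use in axon guidance, read -2.25, -1.97 and -2.24 in wild type and -2.94, -2.60 and -2.96 in Arid3b-null. The groups did not overlap, and the differences within slides were -0.69, -0.63 and -0.73. The mean difference was -0.68 ± 0.15 (log2, SE, limma adjusted p = 0.0175), a 1.60-fold fall. It did not pass on leaving out wild-type array 2 (adjusted p = 0.0524) or Arid3b-null array 1 or 3 (0.0547 and 0.0566) or with no filter on dim probes (0.0700).

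Ephb4, the vein receptor for ephrin-B2, differed by -0.043 with a 95% interval of -0.46 to 0.37. A dimmer probe of Ephb4 differed by 0.22 ± 0.12 (SE) and was not called in the fit over probes (limma adjusted p = 0.197). Ephb2, Ephb3 and Ephb6 differed by 0.27, 0.13 and 0.23 and were not called.

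**Figure D3:**
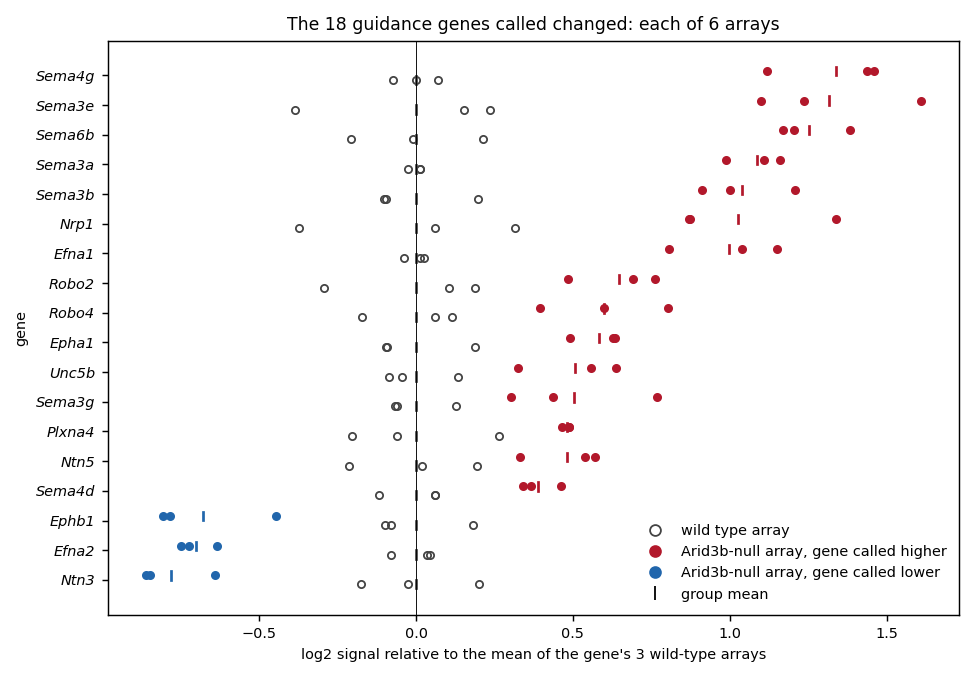
Log2 signal on each of the 6 arrays for the 18 called guidance genes, relative to the mean of that gene's wild-type arrays; open circles are wild type, filled circles Arid3b-null, ticks the group means. The 18 genes were chosen by their calls on these same arrays, so that their groups stand apart adds no support. Groups stood apart in 46.2% of all tested genes. Wild-type arrays of Nrp1 and Sema3e spread more widely than those of Sema3a.

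The semaphorins were the largest family, with 19 tested genes. Of these 7 rose (36.8%, beside 13.6% of all tested genes) and none fell (beside 12.9%), with a median log2 difference of 0.26. At an unadjusted p under 0.05 by limma 8 were higher and 1 lower. Of the 6 class 3 genes, whose products are secreted, 4 rose, with a median of 0.77. Of the 13 genes of classes 4 to 7, mostly membrane proteins, 3 rose, with a median of 0.16. That these shares differ from those of all genes was not tested.

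Sema3a, the repellent that collapses growth cones through neuropilin-1, read -0.96, -0.92 and -0.92 in wild type and 0.22, 0.17 and 0.054 in Arid3b-null. The wild-type arrays lay within 0.1 of each other and every Arid3b-null array stood about 1 unit above them. The difference was 1.09 ± 0.10 (log2, SE, limma adjusted p = 0.00115), a 2.12-fold rise. A dimmer probe of Sema3a differed by 0.36 ± 0.21 (SE) and was not called in the fit over probes (limma adjusted p = 0.253).

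Sema3b, a further secreted semaphorin, read -0.34, -0.043 and -0.33 in wild type and 0.67, 0.97 and 0.76 in Arid3b-null. Its differences within slides were 1.01, 1.01 and 1.10. It rose 2.06-fold (limma adjusted p = 0.00347).

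Sema3e acts on plexin-D1 without a neuropilin and keeps intersomitic vessels to their paths. It read -5.75, -5.66 and -6.29 in wild type and -4.29, -4.66 and -4.80 in Arid3b-null. These are dim signals that cleared background on 2 of 3 wild-type arrays and on all 3 Arid3b-null arrays. The groups did not overlap, with a difference of 1.32 ± 0.21 (log2, SE, limma adjusted p = 0.00672), or 2.49-fold. With normexp on each array's median background the rise was 1.28-fold and not called (adjusted p = 0.0636), and with normexp on local background the difference was -0.68 (adjusted p = 0.563).

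Sema3g, made by arterial endothelium, read -4.55, -4.55 and -4.36 in wild type and -4.05, -4.18 and -3.72 in Arid3b-null, without overlap. It was called at 1.42-fold (limma adjusted p = 0.0482). Leaving out any single wild-type array (adjusted p = 0.138, 0.121 and 0.0664) or Arid3b-null array 1 or 3 (0.0884 and 0.0969) ended the call, and it was lost with median scaling (0.0539), with normexp on each array's median background (0.177) and with no filter on dim probes (0.147). Sema3d and Sema3f were not called, at -0.35 and 0.036.

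Sema4g, a membrane semaphorin, had the largest rise of the 63 genes. It read -1.61, -1.54 and -1.68 in wild type and -0.49, -0.17 and -0.15 in Arid3b-null. The wild-type arrays lay close together and all Arid3b-null arrays stood above them, by 1.12, 1.37 and 1.53 within slides. The rise was 2.53-fold (1.34 ± 0.13 log2, SE, limma adjusted p = 0.00134). Its upstream sequence is shown as that of the member with the largest rise, and it holds 2 matches of the searched core.
Sema4g (GRCm38.p6, chr19:44989094-44989343, plus strand): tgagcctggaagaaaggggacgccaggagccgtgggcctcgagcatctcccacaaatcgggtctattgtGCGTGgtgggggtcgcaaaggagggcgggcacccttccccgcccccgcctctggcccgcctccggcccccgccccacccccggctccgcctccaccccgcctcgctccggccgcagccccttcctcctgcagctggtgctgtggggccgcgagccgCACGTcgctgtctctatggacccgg
The matches are GCGTG on the printed strand, at positions -181 to -177 from the start, and ACGTG on the other strand, at -25 to -21, which reads as CACGT here.

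Sema6b, a transmembrane semaphorin that binds class A plexins, read -2.29, -2.07 and -2.49 in wild type and -1.08, -0.90 and -1.12 in Arid3b-null. It rose 2.38-fold (1.25 ± 0.14 log2, SE, limma adjusted p = 0.00221), and the groups were far apart. Sema6a, Sema6c and Sema6d differed by 0.036, 0.27 and 0.12 and were not called.

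Sema4d, a ligand of plexin-B1, read -1.55, -1.37 and -1.37 in wild type and -1.09, -1.07 and -0.97 in Arid3b-null, without overlap. It was called at 1.31-fold (limma adjusted p = 0.0370). With the replicate block it was not (adjusted p = 0.0586), and the call was lost whichever array was left out (0.0629 to 0.134). Median scaling (0.0797), the deposited value table (0.0599), normexp on each array's median background (0.0639) and no filter on dim probes (0.136) also ended it. Sema4b read -1.34, -1.46 and -1.45 in wild type and -1.85, -1.65 and -1.75 in Arid3b-null. Its difference of -0.33 was not called (limma adjusted p = 0.0599), though it was with quantile normalization (0.0472). Sema4a, Sema4c, Sema4f, Sema5a, Sema5b and Sema7a were not called either, with differences from -0.43 to 0.26.

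Among the receptors for semaphorins Nrp1 rose most. Nrp1 encodes neuropilin-1, which binds class 3 semaphorins on axons and also the growth factor VEGF-A on endothelium. It read -1.42, -2.11 and -1.68 in wild type and -0.87, -0.86 and -0.40 in Arid3b-null. The groups did not overlap, although the wild-type arrays spanned 0.69. The rise was 2.04-fold (1.03 ± 0.22 log2, SE, limma adjusted p = 0.0164), and it did not pass with no filter on dim probes (0.0620). Its upstream sequence is given as that of the receptor gene with the largest difference, and it holds 1 match.
Nrp1 (GRCm38.p6, chr8:128358823-128359072, plus strand): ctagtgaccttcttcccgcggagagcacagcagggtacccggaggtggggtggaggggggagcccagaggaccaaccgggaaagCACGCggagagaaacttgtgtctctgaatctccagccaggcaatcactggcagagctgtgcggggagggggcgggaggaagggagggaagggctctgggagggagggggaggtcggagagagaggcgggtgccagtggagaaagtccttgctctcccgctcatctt
The match is GCGTG on the other strand, at positions -166 to -162 from the start, which reads as CACGC here.

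Of 8 tested plexin genes 1 was called, Plxna4, a receptor for class 3 and class 6 semaphorins on axons. Plxna4 read -0.76, -0.43 and -0.90 in wild type and -0.23, -0.21 and -0.21 in Arid3b-null, a difference of 0.48 ± 0.14 (log2, SE, limma adjusted p = 0.0471). This call ended with the replicate block (adjusted p = 0.0618), on leaving out wild-type array 1 or 3 (0.138 and 0.110) or any single Arid3b-null array (0.101, 0.109 and 0.109), and with median scaling, quantile normalization, the deposited value table and no filter on dim probes (0.0978, 0.0531, 0.0682 and 0.147). The differences of the other 7 ran from -0.23 for Plxna1 to 0.43 for Plxna3.

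Plxnd1, the endothelial receptor for Sema3e, read 3.63, 3.8 and 3.85 in wild type and 4.03, 4.31 and 3.85 in Arid3b-null, so its groups overlapped. Its difference was 0.30 with a 95% interval of -0.052 to 0.65. A dimmer probe of Plxnd1 differed by 0.25 ± 0.10 (SE), without overlap, and was not called in the fit over probes (limma adjusted p = 0.125). Plxnb2 and Plxna2 differed by 0.15 and -0.022.

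Netrin genes moved in opposite directions. Ntn3 read -0.34, -0.57 and -0.72 in wild type and -1.39, -1.40 and -1.18 in Arid3b-null, without overlap. It fell 1.72-fold (-0.78 ± 0.14 log2, SE, limma adjusted p = 0.00874), with differences of -1.05, -0.83 and -0.46 within slides. Ntn5, a more divergent netrin gene, read -3.55, -3.72 and -3.95 in wild type and -3.2, -3.41 and -3.17 in Arid3b-null. It was called at 1.39-fold (limma adjusted p = 0.0473), but not with the replicate block (0.0677) nor when any 1 array was left out (0.0586 to 0.123). Its call was also lost with median scaling, quantile normalization, the deposited value table, normexp on each array's median background and no filter on dim probes (0.0797, 0.0736, 0.0759, 0.0535 and 0.147), and with normexp on local background its difference was -0.51 (0.579).

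Ntn1, the floor plate attractant of commissural axons, read -0.30, -0.47 and 0.19 in wild type and -0.66, -1.15 and -0.10 in Arid3b-null. The groups overlapped, and the difference of -0.44 had a 95% interval of -1.15 to 0.26. Ntn4 had the lowest estimate of all members, -1.76, but wild type replicate 3 stood apart. It read -5.35, -6.02 and -2.33 in wild type and -6.06, -6.47 and -6.44 in Arid3b-null, and was not called (limma adjusted p = 0.191). Without wild type replicate 3 its difference was -0.64 (adjusted p = 0.124). Ntng1, a lipid-anchored netrin-G, differed by 0.17.

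Among the Unc5 receptors Unc5b, which endothelial tip cells and axons use as a repulsive netrin receptor, read 1.22, 1.44 and 1.27 in wild type and 1.64, 1.87 and 1.95 in Arid3b-null. It rose 1.42-fold (0.51 ± 0.13 log2, SE, limma adjusted p = 0.0293), and the groups did not overlap. Leaving out wild-type array 1 or 3 (adjusted p = 0.103 and 0.0755) or Arid3b-null array 2 or 3 (0.0818 and 0.0817) ended the call, as did median scaling (0.0629) and no filter on dim probes (0.107). Unc5a and Unc5c differed by -0.12 and 0.10.

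No Slit gene was called among 3 tested (1 higher and 0 lower at an unadjusted p under 0.05 by limma). Slit1 read 1.68, 1.75 and 1.66 in wild type and 1.73, 2.32 and 1.96 in Arid3b-null, and Slit3 read -0.51, -0.16 and -0.54 and then -0.26, 0.26 and 0.12. The groups of each overlapped. Their differences were 0.30 and 0.44 (limma adjusted p = 0.217 and 0.114), and that of Slit2, which the floor plate makes, was -0.096 (0.621).

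Their receptors rose in 2 of 4 genes. Robo2, an axonal Slit receptor, read -1.57, -1.08 and -1.17 in wild type and -0.79, -0.58 and -0.51 in Arid3b-null. The difference of 0.65 ± 0.16 (log2, SE, limma adjusted p = 0.0277) was matched by a dimmer probe at 0.59 ± 0.16 (adjusted p = 0.0382 in the fit over probes). Robo2 was no longer called on leaving out wild-type array 1 or 3 (adjusted p = 0.0727 and 0.0512) or Arid3b-null array 2 or 3 (0.0786 and 0.0839) and with no filter on dim probes (0.0966). Robo1 differed by 0.33 and was not called (0.134).

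Robo4, the Robo of endothelium, read 0.93, 0.87 and 0.64 in wild type and 1.42, 1.62 and 1.21 in Arid3b-null, without overlap. It rose 1.52-fold (0.60 ± 0.15 log2, SE, limma adjusted p = 0.0261). It did not pass on leaving out any single wild-type array (adjusted p = 0.0586, 0.0590 and 0.0692) or Arid3b-null array 1 or 2 (0.0672 and 0.0701) or with no filter on dim probes (0.0947). Robo3, which lets commissural axons cross the midline, read -2.56, -3.64 and -2.98 in wild type and -4.63, -3.67 and -3.37 in Arid3b-null. Its groups overlapped, the difference came mostly from slide 1 (-2.07, beside -0.035 and -0.39), and it was not called (limma adjusted p = 0.164).

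Endothelial cells are among those known to make Robo4, Nrp1, Unc5b and Sema3g. Of the endothelial markers Pecam1, Cdh5, Kdr, Tek, Tie1, Emcn, Egfl7, Esam and Cldn5 only Tie1 was called (11.1%, beside 26.6% of all genes). Their median log2 difference was 0.23, and their summed signal, in which Egfl7 weighs most, was 31.0 to 35.2 in wild type and 31.6 to 35.8 in Arid3b-null. The hypoxia-induced genes had a median difference of 2.40. Their summed signal, carried mostly by Ldha and Pgk1, was 344 to 426 in wild type and 682 to 718 in Arid3b-null, with Ndrg1 at 16.3-fold and Adm, which encodes adrenomedullin, at 8.71-fold. The part of these lists in the guidance gene results was not tested.

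Partners of the guidance systems, a list of 67 genes of which 66 were tested and which shares Vegfa with the hypoxia-induced list and Kdr with the endothelial list, gave 16 rises (24.2%, beside 13.6% of all tested genes) and 10 falls (15.2%, beside 12.9%), with a median log2 difference of 0.024. The 16 rises became 9, 11, 10, 12, 11 and 10, and the 10 falls 6, 8, 8, 7, 8 and 9, on leaving out wild-type array 1, 2 and 3 and then Arid3b-null array 1, 2 and 3, each alone. With no filter on dim probes there were 7 and 4. Over all genes fewer were called in each of these settings too.

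Of 10 co-receptors and further ligands of the netrin and Slit systems 3 rose (30%, beside 13.6% of all tested genes) and none fell (beside 12.9%). Rgma encodes a lipid-anchored ligand of the netrin receptor neogenin and read -1.55, -1.36 and -1.37 in wild type and 0.45, 0.40 and -0.17 in Arid3b-null. It rose 3.14-fold (limma adjusted p = 0.00217), and the groups were more than 1 unit apart. Cdon and Boc, related co-receptors that also serve hedgehog signalling, rose 1.70-fold and 1.44-fold (limma adjusted p = 0.00789 and 0.0211). The Boc call ended on leaving out any single wild-type array (adjusted p = 0.0581, 0.0559 and 0.0591) or Arid3b-null array 1 or 3 (0.0543 and 0.0547) and with no filter on dim probes (0.0858). Dcc, the attractive netrin receptor, differed by 0.56 and was not called (0.0911), though it was with the replicate block (0.0430). Neo1, which encodes neogenin, differed by -0.025.

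Of 11 adhesion partners and genes of the VEGF system 4 rose (36.4%, beside 13.6% of all tested genes) and 2 fell (18.2%, beside 12.9%). Vegfa, whose product binds neuropilin-1, read 0.83, 0.90 and 0.65 in wild type and 2.88, 3.1 and 2.85 in Arid3b-null. It rose 4.44-fold (limma adjusted p = 0.000375), the largest change among the partners. Kdr, the main VEGF receptor gene, differed by -0.39 and was not called (0.322). Nrcam, an adhesion molecule that joins neuropilin complexes, rose 2.01-fold, and Met, a receptor kinase that pairs with B plexins, rose 1.43-fold (limma adjusted p = 0.00356 and 0.0118). The Met call was lost without wild type replicate 1 (0.0543) and with no filter on dim probes (0.0612).

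Cntn2, an adhesion molecule of commissural and motor axons, read -5.02, -5.91 and -4.99 in wild type and -6.52, -7.53 and -6.95 in Arid3b-null, where it was well above background on 1 of 3 arrays. It fell 3.23-fold (limma adjusted p = 0.0140). With normexp on each array's median background the fall was 1.16-fold and not called (0.222), and it did not pass without wild type replicate 1 (0.0501) or with no filter on dim probes (0.0527).

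Of 45 intracellular effectors 9 rose (20%, beside 13.6% of all tested genes) and 8 fell (17.8%, beside 12.9%), with a median of 0.017. Dpysl4 encodes a collapsin response mediator protein, a family that carries the Sema3a signal to the cytoskeleton of axons. It read 3.63, 3.36 and 3.44 in wild type and 1.58, 1.77 and 1.61 in Arid3b-null, a 3.54-fold fall (limma adjusted p = 0.000464). Crmp1, Dpysl3 and Dpysl2 of the same family, chosen after their values were seen, fell 1.89-fold, 1.54-fold and 1.42-fold (limma adjusted p = 0.00198, 0.0150 and 0.0272), and Dpysl5 was not called (0.595). The Dpysl3 call was lost without wild type replicate 1 (0.0584) and with no filter on dim probes (0.0651). The Dpysl2 call ended with the replicate block (0.0529), on leaving out wild-type array 2 or 3 (0.0710 and 0.0686) or Arid3b-null array 1 or 3 (0.0709 and 0.0773), and with no filter on dim probes (0.102).

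Slit and Robo signals reach the cytoskeleton through the srGAP proteins. Srgap3 read 1.65, 1.46 and 1.45 in wild type and -0.12, 0.090 and 0.23 in Arid3b-null, a 2.74-fold fall (limma adjusted p = 0.00109), which was 1.61-fold with the mean of its probes. Srgap2 and Srgap1, chosen after their values were seen, rose 1.98-fold and 1.76-fold (0.0102 and 0.0131). The Srgap1 call was lost with no filter on dim probes (0.0551). Rras, a small GTPase on which plexins act, rose 2.09-fold, and Grb7, an adaptor that binds Eph receptors, rose 2.24-fold (limma adjusted p = 0.00132 and 0.00159).

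**Figure D4:**
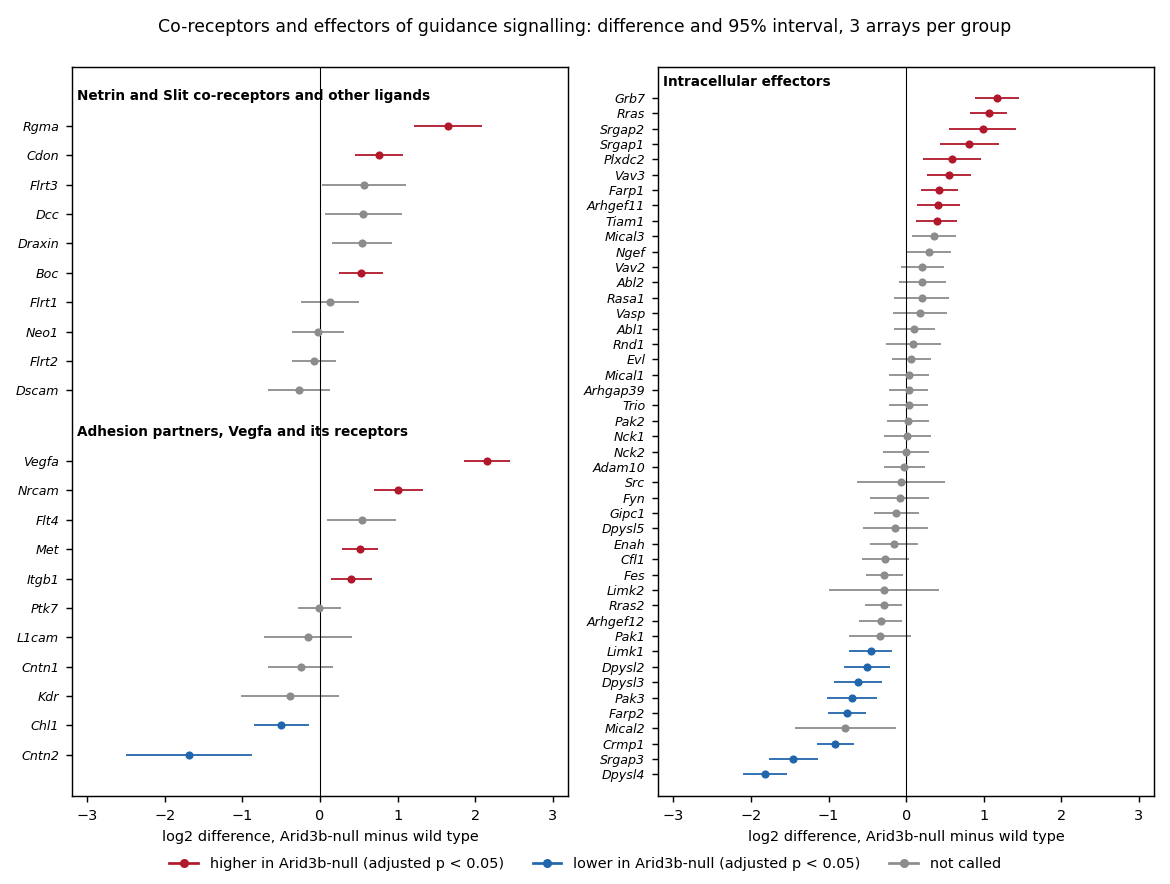
Log2 difference (Arid3b-null minus wild type) of the 66 tested partner genes in 3 classes; points are limma estimates from 3 arrays per group, bars their 95% intervals, and colours show the call. Vegfa (2.15) and Rgma (1.65) lie farthest right, and Dpysl4 (-1.82) and Cntn2 (-1.69) farthest left, where Cntn2 cleared background on 1 of 3 Arid3b-null arrays and was at -0.22 with normexp on each array's median background.

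Among receptors, adhesion molecules and effectors described above for axons, Ephb1, Cntn2, Dpysl4, Crmp1, Dpysl3 and Dpysl2 fell. Of these Cntn2 cleared background on 1 of 3 Arid3b-null arrays and was not called with normexp on each array's median background. Robo2, Plxna4, Nrp1 and Unc5b rose, and others, such as Dcc and Epha4, were not called. Nrcam, Cdon and Boc of the partner list rose as well. Of the 10 early neuron markers 8 were lower, and the median log2 difference of the 10 was -2.65. Their summed signal was 17.6 to 24.9 in wild type and 8.30 to 10.6 in Arid3b-null. Gap43 and Snap25, the 2 markers not called, had the strongest signals in both groups and so weigh most in that sum. Neural progenitor markers had a median difference of -0.73 and a summed signal of 28.3 to 30.8 and 14.05 to 15.6, with 4 of 7 lower. Neural crest markers went both ways (2 higher and 1 lower of 6), somite and mesenchyme markers were lower in 2 of 9, and limb bud markers were higher in 1 of 4. Primitive erythroid markers were lower in 2 of 6, and of 3 tested macrophage markers 1 rose and 1 fell. Beside these counts, 13.6% of all tested genes were called higher and 12.9% lower. The part of these markers in the guidance gene results was not tested.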

How the data were processed

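Total RNA of 6 pools was amplified, labelled with Cy3 and hybridised to one-colour Agilent arrays, per the labels' protocols. The deposited intensity values were read from the scans by Agilent Feature Extraction 10.7.3.1 (array design 026655, build mm9), per the file headers, with the scanner software's background subtracted. The authors' deposited value table holds log2 values of 24181 probes. Its columns tracked the log2 scanner signal of their arrays and had medians of 6.77, the sources used here give no method for it, and it served as an alternative. Probe accessions were matched to symbols in RefSeq's gene table of GRCm38.p6, giving 1 symbol for 26424 probes (67.0%) and none for 13005.

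Log2 processed signals were scaled to each array's 75th percentile, outlier spots were left out and spots of a probe averaged. Probes well above background on all 3 arrays of a group were kept, and a gene's brightest probe represented it; of 13 members with more than 1 tested probe, 4 had probes of opposite sign and 2 probes with different calls. Differences were fitted over 19795 genes in limma 3.58.1 (lmFit, then eBayes; R 4.3.3), and the fit was tested on simulated data. Each of the 3 slides held both groups and had 1 replicate number, so the slide block and the replicate block are the same fit. Deviations from the group means correlated at 0.163, 0.387 and 0.278 between same-numbered arrays, and at -0.346 to 0.117 between the others. Same-numbered arrays shared a slide, so an effect of the slide and a pairing of the samples cannot be told apart. Named genes were up to 5 called members per family with the smallest adjusted p, 2 bright members of families with none, and up to 4 called partners per class; all other genes given with values, Sema3g, Sema4d, Sema4b, Epha2, Ntn4, Robo3 and Dcc among them, were added after their values were seen. Members, lists and tests were chosen with earlier results of these data known.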

Additional observations from a re-analysis of the deposited data

How the results depend on the processing

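The median difference of the guidance genes stayed between 0.14 and 0.22 in all 15 alternative settings, and the 3 falls numbered 2 to 4 except with normexp on local background. Under that setting guidance genes gave 0 rises and 0 falls by limma (6 and 3 at an unadjusted p under 0.05) and partner genes 0 and 0 (10 and 4), and the median of all genes moved from -0.04 to -0.22. The local background of wild type replicate 3 reached 34802 units, beside at most 445 on the other arrays; the cause was not tested. Sema3e, Sema3g and Ntn5 reversed there, at -0.68, -0.63 and -0.51, and Efnb1 ran from -0.052 without Arid3b-null replicate 2 to 0.16 without Arid3b-null replicate 3. With no filter on dim probes, where more genes were tested, the rises were 6 for guidance genes, and partner genes gave 7 and 4. Leaving out 1 array gave 7 to 12 rises and 2 to 3 falls for guidance genes, and 9 to 12 rises and 6 to 9 falls for partner genes. Over all genes it gave 1660 to 2047 rises and 1205 to 2038 falls, beside 2695 and 2561 with all arrays. With the replicate block, which follows the pairing of the slides, guidance genes gave 13 rises and 3 falls and partner genes 14 and 8. Over all genes that block gave 2428 rises and 2348 falls, beside 2695 and 2561 without it. The calls of Sema4d, Plxna4 and Ntn5 were lost and that of Epha2 gained, and no other call of a guidance gene changed. With 3 arrays per group and signals of Sema3e, Sema3g, Ntn4 and Cntn2 near background, small differences in these genes could not be measured well.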
